A study of Mus musculus with 16 samples.

Results

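The prostaglandin and leukotriene pathway was followed through 10 genes for its enzymes and receptors in mouse microglia sorted by their load of amyloid beta. The genes were chosen by symbol: Ptgs1, Ptgs2, Ptges, Hpgds, Hpgd, Ptger2, Ptger3, Ptger4, Alox5 and Alox5ap. Of these, 7 had a row among the 17951 genes of the deposited table, whereas Ptgs2, Ptges and Ptger2 had none and are not analysed here. The cells came from 5xFAD mice, which carry mutant human transgenes driven by the neuronal Thy1 promoter, and from WT mice that the labels list under the same strain name. All mice had been injected with Methoxy-X04 (Me-X04), a fluorescent dye that binds amyloid beta, and microglia were sorted as Cd11b and Cd45 positive, with CX3CR1 as a further gate in the study's methods. There were 7 WT libraries from unstained cells of mice labelled 2 months old, 5 TG Me-X04- libraries and 4 TG Me-X04+ libraries, the last 2 groups from mice labelled 6 months old. The labels trace TG libraries with equal numbers to 1 animal, so 4 animals gave both a stained and an unstained library. By the labels age changes together with genotype, so the 2 cannot be told apart in any comparison with WT, although the study's methods give a narrow age range for all animals.

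Prostaglandins and leukotrienes are lipid signals made from arachidonate released from membranes. Cyclooxygenases turn arachidonate into prostaglandin H2, from which terminal synthases make prostaglandin D2, prostaglandin E2 or thromboxane, while 5-lipoxygenase, together with its activating protein FLAP, starts the leukotrienes. Prostaglandin E2 acts on EP receptors with different G proteins, since EP3 chiefly lowers cyclic AMP through Gi and EP4 raises it through Gs. Microglia are known as the brain cells richest in cyclooxygenase 1 (gene Ptgs1) and in hematopoietic prostaglandin D synthase (gene Hpgds).

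The start regions of 4 of the genes are shown because 2 of them, Ptgs1 and Hpgds, were among the highest expressed members, and the other 2, the receptor genes Ptger3 and Ptger4, differed in opposite directions from WT in the TG Me-X04+ libraries. Sequences are those of RefSeq on GRCm38.p6, from 250 bases before to 50 bases after the start site, written 5′ to 3′ on the strand of the gene. RefSeq entries were found for 9 of the 10 genes, and Alox5ap had none in the table used. In the first 2 sequences, at chr2:36230176-36230475 (plus strand) and chr6:65144681-65144980 (minus strand), capitals mark the word GAGGAAGT, which is bound by the myeloid factor PU.1.
Ptgs1: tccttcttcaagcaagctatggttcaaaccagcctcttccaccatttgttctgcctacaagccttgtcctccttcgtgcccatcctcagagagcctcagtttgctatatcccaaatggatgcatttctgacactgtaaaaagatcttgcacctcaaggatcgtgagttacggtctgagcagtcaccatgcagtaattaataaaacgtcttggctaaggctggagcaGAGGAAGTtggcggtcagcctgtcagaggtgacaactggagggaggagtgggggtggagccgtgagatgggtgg
Hpgds: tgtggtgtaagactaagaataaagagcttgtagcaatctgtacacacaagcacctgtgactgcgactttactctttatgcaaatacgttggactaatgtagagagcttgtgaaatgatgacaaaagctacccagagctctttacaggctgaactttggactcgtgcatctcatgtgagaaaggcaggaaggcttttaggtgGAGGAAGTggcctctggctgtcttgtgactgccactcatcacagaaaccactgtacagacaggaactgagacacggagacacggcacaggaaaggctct
In the other 2, at chr3:157566626-157566925 (plus strand) and chr15:5244138-5244437 (minus strand), capitals mark the CG dinucleotides.
Ptger3: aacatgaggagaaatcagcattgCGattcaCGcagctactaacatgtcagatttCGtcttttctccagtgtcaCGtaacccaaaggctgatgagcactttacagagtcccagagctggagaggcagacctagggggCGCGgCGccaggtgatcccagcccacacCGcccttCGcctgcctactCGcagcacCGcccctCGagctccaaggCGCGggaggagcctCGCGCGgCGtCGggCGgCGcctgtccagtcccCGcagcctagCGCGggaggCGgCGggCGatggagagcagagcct
Ptger4: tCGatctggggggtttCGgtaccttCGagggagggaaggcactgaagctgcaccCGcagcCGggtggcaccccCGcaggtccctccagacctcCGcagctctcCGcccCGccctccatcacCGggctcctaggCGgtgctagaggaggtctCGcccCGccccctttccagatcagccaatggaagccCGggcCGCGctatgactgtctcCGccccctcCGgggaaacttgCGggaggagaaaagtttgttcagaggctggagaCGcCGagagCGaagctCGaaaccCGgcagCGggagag
The word GAGGAAGT was searched on both strands and starts 24 bases before the RefSeq start site in Ptgs1 and 49 bases before it in Hpgds. The Gencode coordinates of Hpgds given below begin further upstream, at base 65144908, so by them the word lies inside the gene. The background was 32851 promoters of the same length, which do not cover every chromosome, and 3.20% of them held the word. The other 7 member promoters did not contain these letters, among them that of Hpgd, which was about as highly expressed as Ptgs1 and Hpgds. The Ptger3 window had 27 CG dinucleotides and the Ptger4 window 25, more than 84.5% and 81.6% of the background promoters, beside a median of 7. The letters TGACG, the core of a cyclic AMP response element, were in neither receptor window, whereas 20.8% of the background promoters held them on either strand. A search for TATAAA, the box that places the start of many inducible genes, found none there either, beside 13.6% of the background promoters. These matches describe the letters only, and binding was not measured.

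Levels are log2 RPKM (reads per kilobase of gene, relative to a scaled library size), as the authors deposited them, and each library held 15623664 to 27579017 reads on the listed genes. The cell type named in the labels was checked first. The 10 microglial markers summed to between 4482 and 8408 RPKM in every library, whereas the lists for other cells were low. The 3 neutrophil markers with a row summed to at most 26.0 RPKM, the 4 monocyte markers to between 1.62 and 9.97, the 7 border-associated macrophage markers to between 1.78 and 20.9, and the 2 endothelial markers to between 1.13 and 12.5. The markers with a row for B cells, astrocytes, neurons, oligodendrocytes, and mural cells with fibroblasts summed to at most 8.10 RPKM in any library. None of the 7 mast cell and basophil markers or of the 7 T and NK cell markers had a row. Within these lists Tmem119, a marker of homeostatic microglia, fell by 1.58 on the log2 scale from unstained to stained TG cells (adjusted p = 0.00821), and Flt1 rose by 3.55 (adjusted p = 0.00608). Against WT, the stained cells had 2 microglial markers called lower (Tmem119 and P2ry12), 1 monocyte marker higher (Fn1) and 1 lower (Ccr2), 1 endothelial marker higher (Flt1) and 1 lower (Pecam1), and 1 neuronal marker lower (Snap25). No neutrophil or border-associated macrophage marker was called, although the median of their summed level was 7.93 and 9.58 RPKM in TG Me-X04+ libraries, beside 0.660 and 3.65 in WT and 0.599 and 4.73 in unstained TG cells. Mitochondrial genes took 31.3 to 56.8% of reads in TG Me-X04+ libraries, beside 20.6 to 44.8% in unstained TG and 12.6 to 31.3% in WT libraries. The listed genes at 0 reads numbered 450 to 1831 in a stained library, beside 83 to 703 in an unstained TG and 55 to 1381 in a WT library. The part of these markers, of the mitochondrial share and of the genes at 0 in the results was not tested. The libraries also fell into 2 sets along the first principal component of their deviations from the group means (37.8% of the variance), set A with 3 WT, 2 unstained TG and 2 stained TG libraries and set B with 4, 3 and 2. The source of the sets is not given in the sources used here, and values within each set are given where they bear on a result.

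In the comparison that the sort was made for, TG Me-X04+ against TG Me-X04-, Ptger3 fell and the other 6 members were not called. A gene was called at an adjusted p under 0.05 and a difference of at least 0.7 on the log2 scale, by limma's test with Benjamini-Hochberg adjustment over all genes. This was 1 of 7 members (14.3%), beside 5.49% of all genes. The fit behind this count left out the pairing of TG libraries by animal. With the animal as a random block 2 of 7 members (28.6%) were called, Ptger3 and Alox5ap, beside 11.8% of all genes. Against WT, the TG Me-X04+ libraries had 3 of 7 members called (42.9%), beside 14.3% of all genes, with Ptger3 and Alox5ap lower and Ptger4 higher. As these are bulk samples of sorted cells, fewer cells expressing a gene and less RNA of it per cell cannot be told apart. In TG Me-X04- against WT 0 of 7 members were called, beside 0.201% of all genes, with 1 member at an unadjusted p under 0.05 and 0 called by limma voom on the recovered reads. The median difference of the 7 members was 0.04 on the log2 scale for TG Me-X04+ against TG Me-X04-, beside -0.09 over all genes, and -0.44 against WT, beside -0.11 over all genes. For TG Me-X04- against WT the median was -0.07, beside 0.01 over all genes. These comparisons share libraries, so they are not independent of each other.

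**Figure D1:**
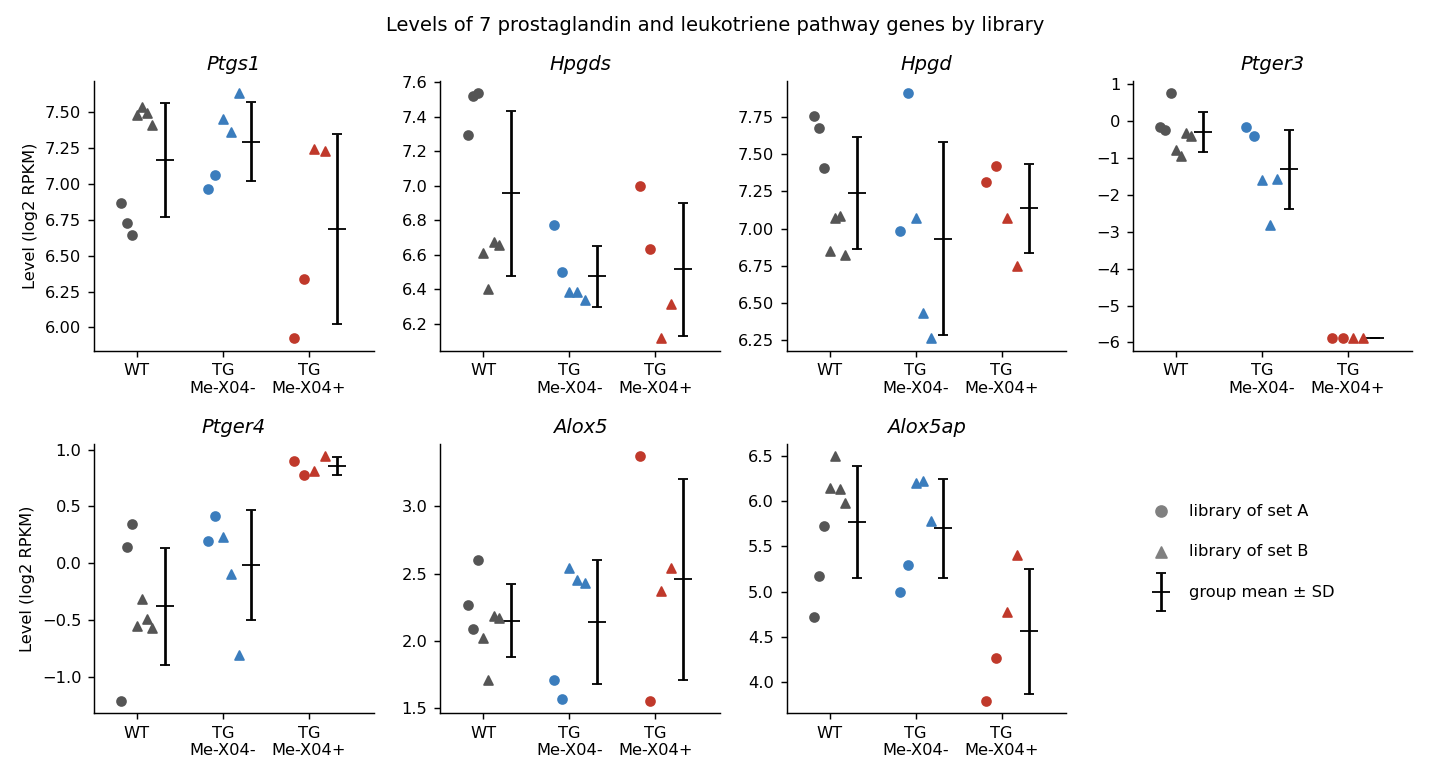
Level of each member gene in log2 RPKM (vertical axis, a separate range per gene) in every library of the 3 groups, with circles for set A, triangles for set B and bars for the group mean ± SD. The 4 TG Me-X04+ libraries sit together at the bottom for Ptger3 (0 reads in each) and above all other libraries for Ptger4, whereas the sets divide Ptgs1 and Hpgds within each group.

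The 2 member enzymes that lead to prostaglandin D2, Ptgs1 and Hpgds, were abundant in all 3 groups and were not called in any comparison. Ptgs1 (ENSMUSG00000047250, GRCm38 chr2:36230426-36252272, plus strand) encodes cyclooxygenase 1, the constitutive enzyme at the head of the prostanoids. It was higher than 99.3% of listed genes in both unstained groups and than 98.4% in TG Me-X04+. In WT its level ran from 6.64 over a median of 7.41 to 7.53 log2 RPKM. TG Me-X04- libraries 1 to 5 had 6.96, 7.06, 7.45, 7.36 and 7.63, and TG Me-X04+ libraries 1 to 4 had 5.92, 6.33, 7.24 and 7.23. The TG Me-X04+ libraries of animals 1 and 2, in set A, were thus the lowest of all 16. Those of animals 3 and 4, in set B, were below all set B libraries of WT (7.41 to 7.53) and TG Me-X04- (7.36 to 7.63). They lay above the set A libraries of those groups, so the groups overlapped only across sets. The fitted difference of TG Me-X04+ from TG Me-X04- was -0.61 ± 0.29 (SE) and was not called (adjusted p = 0.28, limma). Within set A it was -0.88 (adjusted p = 0.093) and within set B -0.24 (adjusted p = 0.27). Over 17 alternatives that kept all libraries or 1 set, it ran from -1.26 to -0.24 and limma's adjusted p from 0.012 to 0.41. None of them met both thresholds for a call. Against WT the difference was -0.48 (adjusted p = 0.28).

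Hpgds (ENSMUSG00000029919, chr6:65117293-65144908, minus strand) encodes the glutathione-dependent synthase that makes prostaglandin D2 in cells of blood origin. Its level ran from 6.40 over 6.68 to 7.53 log2 RPKM in WT. The TG Me-X04- libraries had 6.77, 6.50, 6.39, 6.39 and 6.34, and the TG Me-X04+ libraries 7.00, 6.63, 6.12 and 6.32. The 3 highest values of all were the WT libraries of set A. Within set A all TG libraries were below the WT libraries (7.29 to 7.53). The same held within set B (WT at 6.40 to 6.68), so WT overlapped the TG groups only across sets. Both TG groups had means below that of WT, at 6.48 ± 0.18 (SD, n = 5) and 6.52 ± 0.38 (SD, n = 4) against 6.96 ± 0.48 (SD, n = 7). Neither difference was called, at -0.48 (adjusted p = 0.97, limma) and -0.44 (adjusted p = 0.26). Over 16 alternatives that kept all libraries or 1 set, the latter ran from -0.66 to -0.34, without a call. There limma's adjusted p ran from 0.011 to 0.41, and quantile normalization is given below. Between the TG groups the difference was 0.04, with a 95% interval from -0.51 to 0.59, and its sign turned with the scaling.

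Breakdown was represented by Hpgd (ENSMUSG00000031613, chr8:56294585-56321043, plus strand), the dehydrogenase that inactivates prostaglandins. It was as abundant as the synthases, higher than 99.3% of genes in WT. The WT libraries ran from 6.82 over 7.09 to 7.75 log2 RPKM, the TG Me-X04- libraries had 6.98, 7.91, 7.07, 6.43 and 6.26, and the TG Me-X04+ libraries 7.32, 7.42, 7.07 and 6.75. The 3 groups overlapped. The difference between the TG groups was 0.21 (95% interval from -0.44 to 0.85, adjusted p = 0.78, limma), that of TG Me-X04- from WT was -0.31 (adjusted p = 0.999) and that of TG Me-X04+ from WT was -0.10 (adjusted p = 0.865). Quantile normalization turned the first of these to -0.41 and called Ptgs1, Hpgds and Hpgd lower in TG Me-X04+ than in WT, by 1.16, 1.04 and 0.78 on the log2 scale, which no other alternative did.

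In the order of levels Hpgd, Ptgs1 and Hpgds came first in every group, followed by Alox5ap, Alox5 and the 2 receptors. Among the first 3 the gaps between neighbouring means were 0.07 and 0.21 log2 units in WT, 0.36 and 0.46 in unstained TG and 0.46 and 0.17 in stained TG libraries, and each was smaller than its SD between libraries. The 3 therefore could not be ranked. Alox5ap lay below Hpgds in 6 of 7 WT, 5 of 5 unstained TG and 4 of 4 stained TG libraries, and Alox5 lay below Alox5ap in all 16. Ptger3 and Ptger4 did not differ beyond their spread in WT (gap of 0.08 with an SD of 0.56), but Ptger4 was above Ptger3 in all 5 unstained and all 4 stained TG libraries.

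The 2 receptors were the lowest expressed members, and they were the ones whose TG Me-X04+ libraries did not overlap the other groups. Ptger3 (ENSMUSG00000040016, chr3:157566892-157645888, plus strand) encodes EP3. No exon of another annotated gene overlapped it. Its level in WT ran from -0.93 over -0.33 to 0.76 log2 RPKM, on 73 to 142 reads per library. TG Me-X04- libraries 1 to 5 had -0.15, -0.41, -1.60, -2.82 and -1.56 on 83, 83, 49, 18 and 45 reads, and TG Me-X04+ libraries 1 to 4 all had -5.89 on 0 reads. The gene was thus read in all 12 libraries of unstained cells and in none of the 4 of stained cells, at 10052049 to 18744562 reads outside mitochondrial genes in the latter and 10946955 to 16887948 in the unstained TG libraries. The stained libraries also had more genes at 0 reads in all 4 animals than the unstained library of the same animal, with 1831 and 503 in animal 1, 1781 and 703 in animal 2, 524 and 95 in animal 3 and 450 and 101 in animal 4, and the part of this in the result was not tested. A count of 0 allows a limit of 3 reads per library (0.0301 RPKM on average, counting error only). By the group means, Ptger3 was then at least 15.8-fold lower in TG Me-X04+ than in unstained TG cells (mean 0.476 RPKM). It was at least 28.3-fold lower than in WT (mean 0.854 RPKM). These folds leave out the spread between libraries. The lowest unstained TG library, of animal 4, had 0.125 RPKM, beside a limit of 0.0224 RPKM in its stained library. The fitted differences, which depend on the small prior added to the reads, were -4.58 ± 0.55 (SE, adjusted p = 0.000224, limma) and -5.59 ± 0.51 (SE, adjusted p = 1.74e-06). On log2(RPKM + 1), where a gene at this level can hardly move, the first difference was -0.53 and was no longer called (adjusted p = 0.077).

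The TG Me-X04- libraries lay between. Their Ptger3 mean was 1.01 log2 units below that of WT, which was not called (95% interval from -2.02 to -0.0021, adjusted p = 0.96, limma). The 2 TG Me-X04- libraries of set A had -0.15 and -0.41, close to the set A WT libraries at -0.24 to 0.76, whereas the 3 of set B had -2.82 to -1.56, all below the set B WT libraries at -0.93 to -0.33. Within set B the difference was -1.38 (adjusted p = 0.41). The fall in TG Me-X04+ was called within both sets, at -5.61 in set A (adjusted p = 0.044) and -3.90 in set B (adjusted p = 0.0025). Over the 16 libraries the genes whose log2 RPKM followed Ptger3 most closely, among 13324 genes with a mean of at least 0, were Abcg3 (Pearson r = 0.976), Nhsl2 (r = 0.976) and Il7r (r = 0.964). These values describe the pattern, in which the 4 libraries at 0 reads carry most of the spread. Il7r, an interleukin receptor chain, had means of 3.90 in WT, 3.59 in unstained TG and 1.04 in stained TG libraries.

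Ptger4 (ENSMUSG00000039942, chr15:5206661-5244187, minus strand) encodes EP4, the receptor through which prostaglandin E2 raises cyclic AMP. Its level in WT ran from -1.21 over -0.49 to 0.35 log2 RPKM, on 46 to 135 reads per library. The TG Me-X04- libraries had 0.20, 0.42, 0.23, -0.10 and -0.81 on 124, 175, 212, 155 and 91 reads, and the TG Me-X04+ libraries 0.90, 0.78, 0.81 and 0.94 on 163, 169, 265 and 299 reads. All 4 TG Me-X04+ libraries were above every other library, with an SD of 0.08 between them beside 0.48 and 0.51 in TG Me-X04- and WT. Against WT, Ptger4 rose by 1.23 ± 0.35 (SE) on the log2 scale (adjusted p = 0.024, limma), with means of 1.82 and 0.813 RPKM. Against TG Me-X04- the difference was 0.87 (95% interval from 0.08 to 1.66) and was not called (adjusted p = 0.21, and 0.10 with the animal as a random block). The call against WT was lost when the replicate number was the block (1.07, adjusted p = 0.13), on log2(RPKM + 1) (0.65, below the fold required), without TG Me-X04+ replicate 4 (1.21, adjusted p = 0.052) and with only the 2 groups in the fit (adjusted p = 0.051). Within set A the difference from WT was 1.08 (adjusted p = 0.37) and within set B 1.36 (adjusted p = 0.020). The exons of Ptger4 share 82 bases with Ttc33 on the other strand and 1015 with the pseudogene Gm15937. Whether the authors counted by strand is not given in the sources used here, and neither neighbour was called (0.33 and -0.56 against WT, adjusted p = 0.70 and 0.79).

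**Figure D2:**
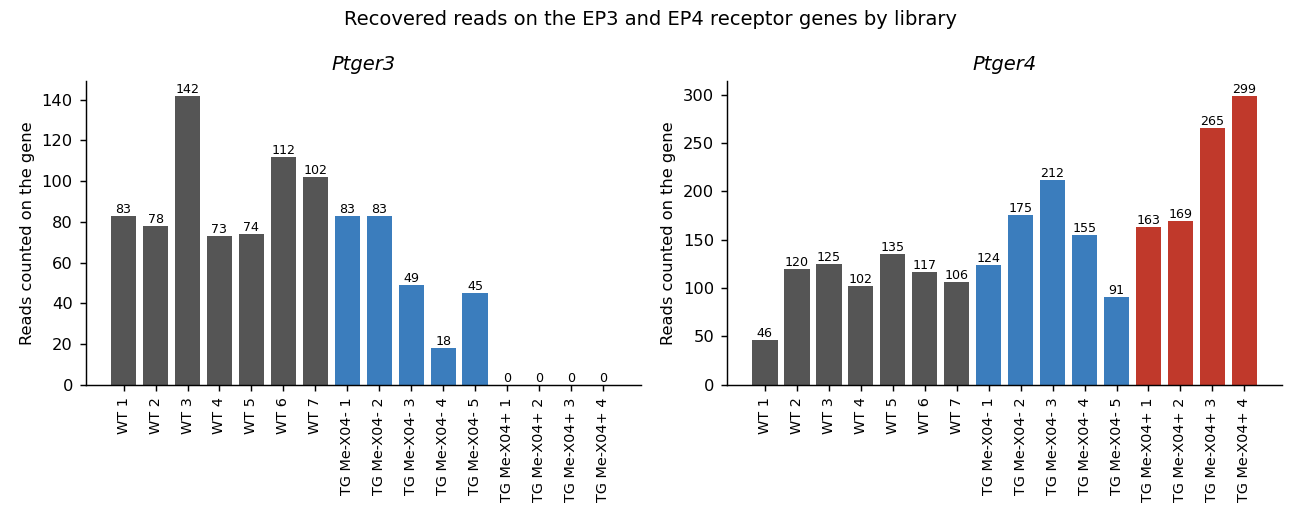
Reads counted on Ptger3 (left) and Ptger4 (right) in each of the 16 libraries (bars from 0, coloured by group), recovered from the deposited values and not scaled for depth. Ptger3 has 18 to 142 reads in each WT and TG Me-X04- library and 0 in all 4 TG Me-X04+ libraries, which hold 163 to 299 reads on Ptger4.

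Counts of members whose groups did not overlap followed the receptors. For TG Me-X04+ against TG Me-X04- these were Ptger3 and Ptger4, 2 of 7, beside 7.93% of all genes, and the same pair stood apart from WT, beside 10.5% of all genes. For TG Me-X04- against WT 0 of 7 did not overlap, beside 1.06% of all genes.

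The leukotriene arm was represented by 5-lipoxygenase and FLAP, which differed in level and in pattern. Alox5 (ENSMUSG00000025701, chr6:116410077-116461178, minus strand) encodes the lipoxygenase. It ran from 1.71 over 2.17 to 2.60 log2 RPKM in WT. The TG Me-X04- libraries had 1.71, 1.57, 2.54, 2.45 and 2.43, and the TG Me-X04+ libraries 3.37, 1.55, 2.37 and 2.54. The highest and the lowest value of all 16 were thus both TG Me-X04+ libraries, of animals 1 and 2. The difference was 0.32 between the TG groups (95% interval from -0.37 to 1.01, adjusted p = 0.66, limma), -0.01 for TG Me-X04- against WT (adjusted p = 0.999) and 0.31 for TG Me-X04+ against WT (adjusted p = 0.57).

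Alox5ap (ENSMUSG00000060063, chr5:149264767-149288153, plus strand) encodes FLAP, which presents arachidonate to 5-lipoxygenase. It was higher than 97.8% of genes in WT and than 92.0% in TG Me-X04+. It ran from 4.73 over 5.98 to 6.50 log2 RPKM in WT. The TG Me-X04- libraries had 5.00, 5.29, 6.20, 6.22 and 5.79, and the TG Me-X04+ libraries 3.79, 4.27, 4.78 and 5.40. The 2 TG Me-X04+ libraries of set A were the lowest of all, and those of set B were below all set B libraries of the other groups, so the groups overlapped only across sets. Against WT, Alox5ap fell by 1.21 ± 0.36 (SE) on the log2 scale (adjusted p = 0.029, limma), with means of 25.8 and 58.6 RPKM. Against TG Me-X04- the difference was -1.14 ± 0.38 (SE) and was not called (adjusted p = 0.097). With the animal as a random block this difference was -1.13 ± 0.29 (SE) and was called (adjusted p = 0.014), as it was when the number was the block (-1.02, adjusted p = 0.015) and without TG Me-X04+ replicate 4 (-1.42, adjusted p = 0.044). Either block made 2 of 7 members called (28.6%), beside 11.8% of all genes with the random block and 4.98% with the number. Within set B it was called at -0.98 (adjusted p = 0.020) and within set A it was -1.11 (adjusted p = 0.20).

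The call of Alox5ap against WT was lost when any of 6 libraries was left out: TG Me-X04+ replicates 1 and 2 (-0.95 and -1.11, adjusted p = 0.11 and 0.087) and WT replicates 4, 5, 6 and 7 (-1.17 to -1.08, adjusted p = 0.051 to 0.054). In set A alone it was -1.18 (adjusted p = 0.062). The difference kept its direction in each of these. In its exons 189 bases are shared with Gm19719, an antisense gene that had itself fallen by 1.24 against TG Me-X04- (adjusted p = 0.030) and by 1.38 against WT (adjusted p = 0.0039), and without knowledge of strand the reads of the 2 genes cannot be told apart there. Within each library Alox5ap stood above Alox5 by 2.46 to 4.79 log2 units in WT, by 3.29 to 3.77 in unstained TG and by 0.42, 2.72, 2.41 and 2.86 in TG Me-X04+ libraries 1 to 4. This distance does not depend on the scaling of the library, and the TG Me-X04+ libraries lay below all TG Me-X04- libraries but not below all of WT.

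**Figure D3:**
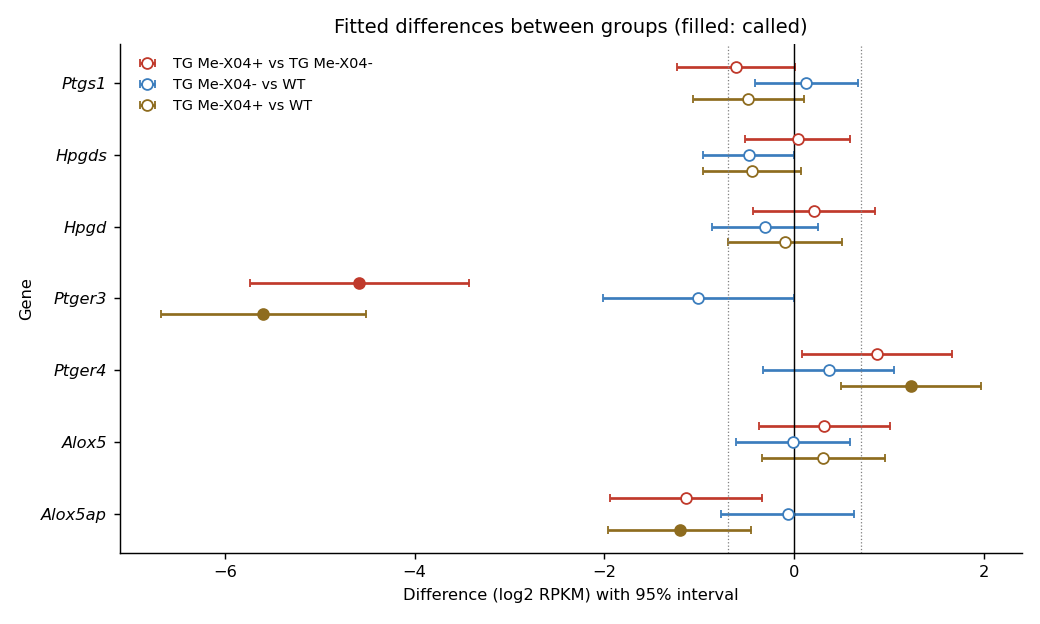
Fitted difference between groups in log2 RPKM (horizontal axis) with its 95% interval for the 7 members (vertical axis), in 3 colours for the 3 comparisons, with filled points for called differences and dotted lines at the fold threshold of 0.7. Ptger3 lies far to the left in both comparisons of TG Me-X04+, Ptger4 to the right and Alox5ap to the left, and the intervals of Ptgs1, Hpgds, Hpgd and Alox5 reach 0.

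The 4 animals with both libraries were compared one by one. Alox5ap was lower in the stained than in the unstained library of 4 of 4 animals, by 1.12 on average and by 0.82 to 1.42 on the log2 scale. Ptgs1 was lower in 4 of 4 animals as well, by 0.13 to 1.04, Ptger3 was lower in all 4, and Ptger4 was higher in all 4, by 0.36 to 1.04. These were 4 of 7 members with the same direction in every animal, beside 28.2% of all genes. Hpgds and Alox5 were higher in 2 and lower in 2 animals, and Hpgd was higher in 3 of 4, with differences from -0.49 to 0.33. An exact test over 4 pairs cannot reach p under 0.05, so none is given.

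**Figure D4:**
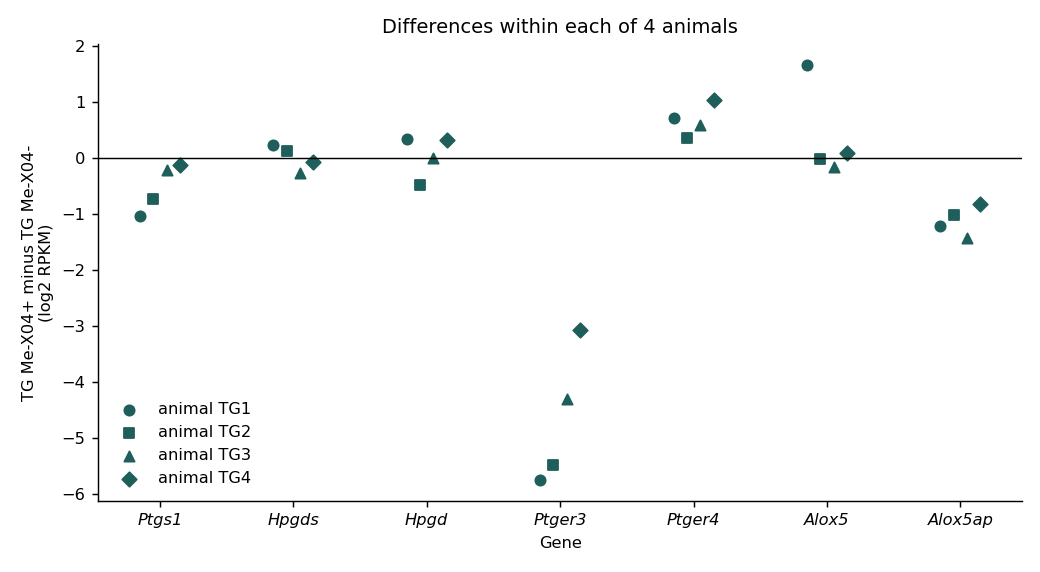
Difference in log2 RPKM between the stained and the unstained library of the same animal (vertical axis) for each member (horizontal axis), with 1 symbol per animal. All 4 animals lie below 0 for Ptgs1, Ptger3 and Alox5ap and above 0 for Ptger4, and they straddle 0 for Hpgds, Hpgd and Alox5.

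The rest of the pathway was read from a list of 79 genes in 6 roles, of which 53 had a row. In TG Me-X04+ against TG Me-X04- 1 of the 53 (1.89%) was called, higher, which is below the 5.49% of all genes. In TG Me-X04- against WT 0 were called, beside 0.201% of all genes, with 2 at an unadjusted p under 0.05 and 0 called by limma voom. In TG Me-X04+ against WT 8 of 53 (15.1%) were called, 3 higher and 5 lower, which is close to the 14.3% of all genes. With the animal as a random block 9 of 53 (17.0%) were called between the TG groups, 3 higher and 6 lower, beside 11.8% of all genes, and 2 when the number was the block, beside 4.98%. The median differences of the 53 were -0.14 between the TG groups, 0.06 for TG Me-X04- against WT and -0.10 for TG Me-X04+ against WT.

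Arachidonate release had 12 genes with a row and 2 calls in TG Me-X04+ against WT. Dagla, a diacylglycerol lipase that makes the arachidonate carrier 2-arachidonoylglycerol, fell by 1.18 on the log2 scale (adjusted p = 0.018, limma). This call was lost under 2 alternatives (adjusted p = 0.065 and 0.085) and when 1 of the libraries was left out (-0.92, adjusted p = 0.077). Abhd12, a lipase that hydrolyses lysophosphatidylserine and 2-arachidonoylglycerol and the highest expressed gene of the role, rose by 0.78 (adjusted p = 0.012). This call was lost under 3 alternatives, at 0.11 to 0.62, the lowest being quantile normalization. Pla2g4a, the cytosolic phospholipase A2, was not called in any comparison (-0.48 against WT, adjusted p = 0.30). In the text that follows all adjusted p-values are limma's as well.

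None of the 7 other prostanoid synthases was called in any comparison. The highest expressed was Tbxas1, thromboxane synthase, with means of 3.97 log2 RPKM in WT, 4.00 in unstained TG and 4.24 in stained TG libraries. Its difference between the TG groups was 0.24, with a 95% interval from -0.22 to 0.71. Ptgds, the lipocalin-type prostaglandin D synthase, differed by -1.73 between the TG groups with an SE of 1.28 (adjusted p = 0.52).

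Leukotriene and lipoxin synthesis, with 7 genes, had a median of -1.45 between the TG groups and -1.18 against WT, which was not tested against the other roles. It rests in part on genes near the limit of detection, since Mgst2, Dpep2 and Alox12 had medians of 2.5, 2.5 and 10.5 reads in the TG Me-X04+ libraries, where the added prior sets much of the log2 value. Only 1 of the 7 was called, Ggt5, a gamma-glutamyltransferase that cuts leukotriene C4, which fell by 2.07 against WT (adjusted p = 0.0056). Against TG Me-X04- it was -1.45 (adjusted p = 0.11), which was called with the random block (-1.43, adjusted p = 0.022). Ltc4s, leukotriene C4 synthase, was the highest expressed of the role. It had -0.94 between the TG groups (adjusted p = 0.52) and followed the sets, with 2.45 and 3.13 log2 RPKM in the TG Me-X04+ libraries of set A and 5.73 and 4.98 in those of set B. Within animals it was lower in the stained library in 4 of 4, by 0.47 to 1.27 on the log2 scale. Mgst2, which can also make leukotriene C4, was at -2.09 between the TG groups (adjusted p = 0.10, and 0.033 with the random block), on 0 to 11 reads in TG Me-X04+ and 12 to 34 in unstained TG libraries, so this value depends on the prior. Lta4h, the hydrolase that makes leukotriene B4, was at 0.07 (adjusted p = 0.89).

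Breakdown and transport, with 8 genes, had 2 calls against WT in opposite directions. Ephx1, microsomal epoxide hydrolase, rose by 2.43 ± 0.63 (SE, adjusted p = 0.014), a call lost under 1 alternative (2.78, adjusted p = 0.22). Its TG Me-X04+ libraries, at 2.07, 3.26, 2.71 and 3.54 log2 RPKM, were above all WT libraries (-2.72 to 1.57) and all TG Me-X04- libraries (0.02 to 1.66). Cyp4f16, a cytochrome P450 of the family that hydroxylates leukotriene B4, fell by 2.29 (adjusted p = 0.030), but this call was lost without TG Me-X04+ replicate 2 (-1.60, adjusted p = 0.12) or 3 (-1.84, adjusted p = 0.10), without WT replicate 3 or 4 and under 6 other alternatives. Cyp4f13 was the highest expressed of the role and was not called (-0.19 between the TG groups, adjusted p = 0.82).

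Among the 4 other receptors with a row, Cysltr1, the cysteinyl leukotriene receptor, fell by 1.21 ± 0.24 (SE) against WT (adjusted p = 0.0022). Its TG Me-X04+ libraries had 3.29, 3.56, 3.33 and 2.98 log2 RPKM, below all TG Me-X04- libraries (3.83 to 4.51) and all WT libraries (3.94 to 5.39). Against TG Me-X04- it was -0.76 (adjusted p = 0.10), which was called with the random block (-0.78, adjusted p = 0.018). Ptger1, for the EP1 receptor, was at -0.78 between the TG groups (adjusted p = 0.50), and Cmklr1, the chemerin and resolvin receptor and the highest expressed of the role, was at -0.34 (adjusted p = 0.62).

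Downstream of the receptors, 15 genes for G proteins and cyclic AMP had a row. Of these, 1 (6.67%) was called between the TG groups, beside 5.49% of all genes. In TG Me-X04+ against WT 2 (13.3%) were called, beside 14.3% of all genes. The medians of the 15 were -0.08 and 0.05, beside -0.09 and -0.11 over all genes. Gnas, which encodes the Gs alpha subunit that EP4 couples to, was the 1 gene of the 53 called between the TG groups. It ran from 3.57 over 3.96 to 4.31 log2 RPKM in WT, was 5.27, 5.00, 4.20, 4.09 and 4.28 in the TG Me-X04- libraries and 6.95, 7.19, 6.35 and 6.70 in the TG Me-X04+ libraries. All 4 TG Me-X04+ libraries were above every other library. It rose by 2.23 ± 0.26 (SE) between the TG groups (adjusted p = 0.00019) and by 2.83 ± 0.24 (SE) against WT (adjusted p = 1.02e-06). Its exons share 1469 bases with Gm20721, an annotated gene on the other strand that rose by 2.24 between the TG groups, and overlap the antisense gene Nespas, so reads of these genes cannot be told apart there.

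Pde4b, a phosphodiesterase that breaks down cyclic AMP, fell by 2.42 ± 0.46 (SE) against WT (adjusted p = 0.0016). Its TG Me-X04+ libraries had 0.46, -0.16, -1.52 and 0.51 log2 RPKM, below all TG Me-X04- (0.86 to 2.26) and all WT libraries (1.41 to 3.20). Between the TG groups it was -1.73, which missed the threshold (adjusted p = 0.050) and was called with the random block (-1.79, adjusted p = 0.0078). Crem, a cyclic AMP responsive transcription factor, was at 1.33 between the TG groups (adjusted p = 0.058, and 0.012 with the random block). Crem was not called and was named after its value was seen. Gnai2 was the highest gene of the role by mean log2 RPKM over all 16 libraries. It was below Gnas in the 4 stained libraries and in TG Me-X04- replicate 1 (5.11 beside 5.27). Gnai2 encodes a Gi alpha subunit of the kind EP3 couples to and was not called (0.20 between the TG groups, 95% interval from -0.39 to 0.80).

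**Figure D5:**
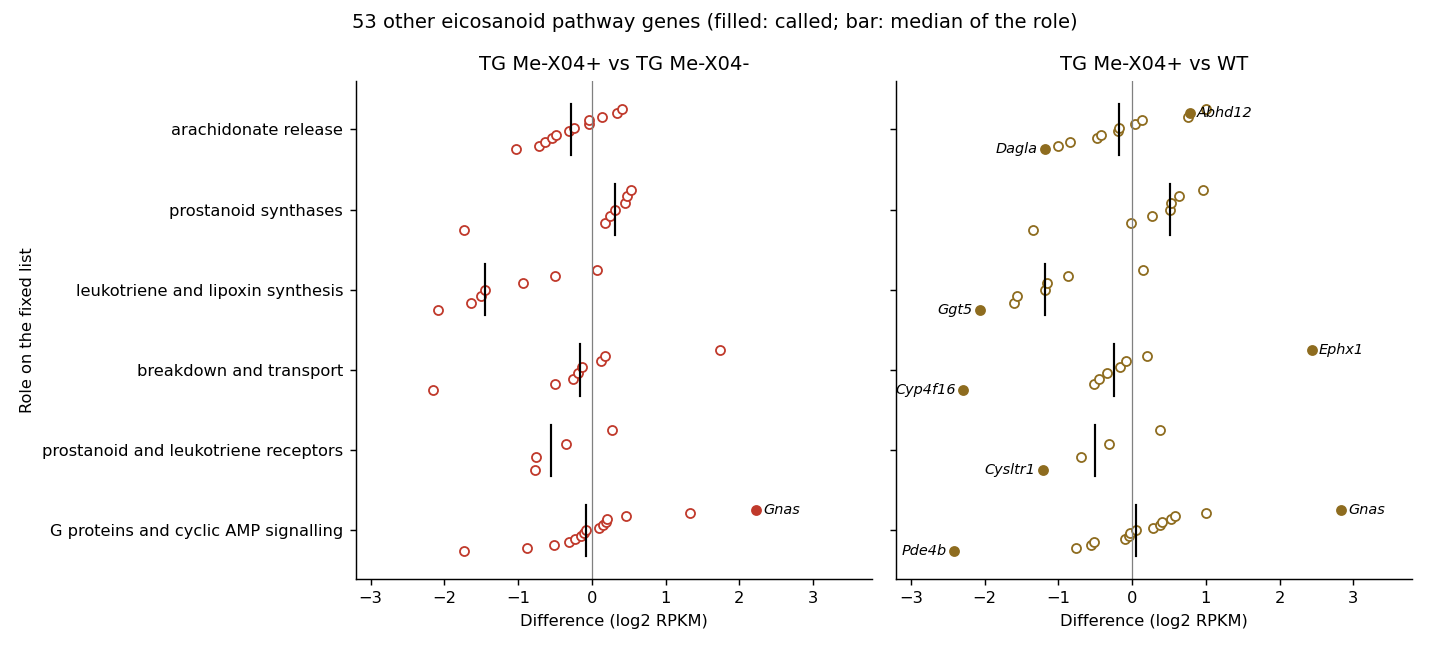
Difference in log2 RPKM (horizontal axis) of the 53 other pathway genes by role (vertical axis), between the TG groups (left) and between TG Me-X04+ and WT (right), with filled and named points for called genes and a bar at the median of each role. Gnas is the only filled point on the left, and 8 genes are filled on the right, from Pde4b at -2.42 to Gnas at 2.83.

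The share of mitochondrial reads was higher in TG Me-X04+ libraries, and the direction of smaller differences depended on how this was treated. When libraries were scaled by the reads outside mitochondrial genes, the median difference of all genes between the TG groups moved from -0.09 to -0.37, and the calls over all genes went from 617 higher and 369 lower to 309 higher and 721 lower. Quantile normalization gave 421 higher and 407 lower, and log2(RPKM + 1) 727 and 253. Under the mitochondrial scaling Ptgs1 was at -0.88 (adjusted p = 0.12) and Alox5ap at -1.41 (adjusted p = 0.04997, which was under the threshold), both below that median, and Ptger4 was at 0.60 (adjusted p = 0.34), above it.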

How the data were processed

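RNA was measured in 16 libraries of sorted mouse microglia (7 WT, 5 TG Me-X04-, 4 TG Me-X04+), grouped by their labels. The authors trimmed reads with Trim Galore 0.4.4, aligned them to GRCm38 with STAR 2.5.4b, counted them on Gencode genes with featureCounts, filtered and scaled them by TMM with edgeR 3.24.3, and deposited log2 RPKM with a small prior. The deposited table also holds results of the authors' own comparisons, which were not used. The libraries were amplified with a kit that starts from small amounts of RNA, and 2 kinds of sequencer are named without saying which library ran on which.

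Differences were fitted by limma 3.58.1 under R 4.3.3 (linear models and eBayes with a variance trend, all 16 libraries, 1 coefficient per group), two-sided, with Benjamini-Hochberg adjustment over 17951 genes. The count test of the study's methods needs counts and was replaced by limma. Whole reads were recovered from the steps of the values (100% within 0.01 reads) for depths, floors and limma voom. Intervals are 95%, and floors cover counting error only. P-values measure the spread between libraries, which within a group came from different animals.

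The test was checked on simulated data for TG Me-X04+ against TG Me-X04- with 17951 genes. With 200 genes shifted at a time, it called 1.5% of those shifted by 1 log2 unit, 41% at 1.5 units and 94% at 2 units. The fit leaves out the pairing by animal. The simulation gave every gene the same assumed dispersion and had no sets of libraries. It also shifted fewer genes than the 986 called in the data, which makes the adjustment stricter. These shares therefore do not give the power for Alox5ap or Ptger4, which was not measured. The blocked fits were not simulated.

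The labels give same-numbered TG libraries the same animal, and the pairing rests on these labels. The deviations of the paired libraries from the group means correlated at 0.292 to 0.329 in all 4 pairs. Stained and unstained TG libraries of the same set with different numbers correlated at 0.221 to 0.332 (6 pairs), so the correlation cannot show the pairing. Same-numbered WT libraries are other animals.

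The members, the pathway list of 79 genes and the marker lists were chosen with earlier results of these data known. Every member found, every pathway gene called in at least 1 comparison and the highest expressed gene of each role were named, together with the 3 genes most like any member called between the TG groups. Pla2g4a, Ptgds, Mgst2, Lta4h, Ptger1, Crem and overlapping neighbours were added after their values were seen. Alternatives were other variance models, library weights, scalings, pseudocounts of 1 and 0.1, a filter at a mean of 0, no fold threshold, 2 groups only, replicate blocks, a term for the 2 sets, limma voom and each library left out. The fits within each set were added after the data were seen. Coordinates are those of a later Gencode release on GRCm38 than the one counted, and promoters were taken from RefSeq.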

Additional observations from a re-analysis of the deposited data

Results flagged for a closer look

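Each gene named was checked for a library that stood far from the others of its group, in 59 groups of genes and conditions, and 3 were found, which is about the number that chance gives at 1 in 20 groups. Tbxas1 was lowest in TG Me-X04- replicate 2, at 3.33 log2 RPKM beside 4.13 to 4.20 in the other 4. Ephx1 was lowest in WT replicate 3, at -2.72 beside 0.57 to 1.57 in the other 6. Cmklr1 was lowest in TG Me-X04- replicate 3, at 5.05 beside 5.46 to 5.61. None of the 7 member genes had such a library.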

How the results depend on the processing

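Of the 7 members, 1 was called between the TG groups, beside 5.49% of all genes. The count was 2 when libraries were scaled outside mitochondrial reads (5.74% of all genes), with the replicate number or the animal as a replicate block (4.98% and 11.8%), with a term for the 2 sets (11.9%) and in set B only (12.6%), and Alox5ap was the gene added each time. It was 0 on log2(RPKM + 1) (5.46%) and with a filter at a mean of 0, which removes Ptger3 (6.13%), and 1 to 2 when 1 library was left out (3.08 to 5.69%). Of the 53 other pathway genes, 1 was called between the TG groups, and 2 were called without a variance trend (4.90% of all genes), with quantile normalization (4.61%), with the filter or with the number block. Limma voom (5.71%) and log2(RPKM + 1) called 3, library weights (5.90%), mitochondrial scaling and set B called 4, the term for the sets called 6 and the animal block called 9, and leaving out 1 library gave 1 to 3. Against WT, the TG Me-X04+ count of 3 members (14.3% of all genes) was 6 with quantile normalization (14.3%) and 1 in set A (9.20%), and the count of 8 pathway genes was 5 in set A. The replicate block changed no call of a member other than those of Alox5ap and Ptger4 given above.

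Signs turned only in differences that had not been called. Between the TG groups Hpgds became -0.072 with library weights, -0.56 with quantile normalization, -0.24 with mitochondrial scaling, -0.062 with the number block, -0.022 with the set term and -0.15 in set B, and ran from -0.12 to 0.17 with 1 library left out. Hpgd became -0.41 with quantile normalization, -0.068 with mitochondrial scaling and -0.079 in set A, and Alox5 -0.017 in set B. For TG Me-X04- against WT, Ptgs1 became -0.026 with library weights and -0.00025 in set B. Alox5 became 0.28 with library weights, 0.050 with quantile normalization, 0.10 with mitochondrial scaling, 0.0014 with the number block, 0.047 with limma voom and 0.45 in set B, and ran from -0.11 to 0.13 with 1 library left out. Alox5ap became 0.046 with mitochondrial scaling and 0.047 with the number block, and ran from -0.24 to 0.11 with 1 library left out. In TG Me-X04+ against WT, Hpgd ran from -0.19 to 0.031 with 1 library left out. The cause was not tested. Among the members, Ptger3 and Ptger4 had the fewest reads, at most 142 and 299 per library, and several other pathway genes had fewer.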
